A study of Mus musculus with 24 samples.

Results

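Aminoacyl-tRNA synthetase genes were examined in mouse E14 embryonic stem cells in which the ribosomal protein RACK1 carried an auxin-inducible degron (AID). The members were the genes of a list of 37 symbols, taken by symbol from a comparison table of 13504 genes, and 36 of the 37 were present. They comprised 20 cytosolic enzymes or subunits and 16 mitochondrial enzymes, the latter being all those with a symbol ending in 2 other than Tarsl2. The absent symbol was Mars1. The table holds that gene under the older symbol Mars, so it was not counted.

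All cells carried RACK1-AID, the tagged small-subunit protein, and were kept in KO DMEM. In the Ribo-Tweezer line (Rps26Tir1 in the plots), the auxin receptor TIR1 was carried on RPS26, a small-subunit protein. In the control line (FreeTir1 in the plots), TIR1 was not attached to the ribosome. Indole-3-acetic acid (IAA), a plant auxin, brings a degron-tagged protein to TIR1 for degradation, and each line received IAA or the solvent DMSO for 12 h. Polyadenylated RNA of free, low-translation and heavy-translation fractions was sequenced, which gave 24 libraries in 12 groups of 2, with 12 libraries in each line. The labels do not say whether replicates came from separate cultures, nor whether a line is 1 clone, so p-values reflect library spread alone, which may be technical. Free, low-translation and heavy-translation libraries carry the same replicate number and may come from the same cells. Such libraries would not be independent, and how the deposited p-values treat this is not stated.

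What the authors deposited is a table that sets IAA against DMSO within each line, and gives every gene a log fold change, its mean level over libraries (average expression), p and adjusted p. Values of single libraries or fractions were not used here, so no SD can be given and the read depth is unknown. The headers do not state which treatment was the numerator or which fractions entered. Only a sign, positive or negative, is therefore given; if IAA was the numerator, as is usual, positive means more with IAA. Amount of mRNA and loading with ribosomes cannot be told apart in these values. All 10 embryonic stem cell markers were measured, with an average expression between 6.13 and 10.8 on the log2 scale. The 3 of 8 feeder fibroblast markers in the table lay between 0.15 and 3.53, and the 6 primitive endoderm markers had a median of 0.49. In the Ribo-Tweezer line each of the 3 feeder markers had an unadjusted p under 0.05, in mixed directions: the authors' deposited table gave Col1a1 -1.42 (adjusted p = 0.0254), Thy1 -0.28 (adjusted p = 0.191) and Pdgfrb 0.38 (adjusted p = 0.214). Of the 6 primitive endoderm markers 2 did, Foxa2 negative and Gata4 positive, and of the 10 stem cell markers 1 did, Tfcp2l1, which was positive. Over all genes the share in that line was 16.3%, with 9.55% positive and 6.72% negative. The part of such markers in the synthetase values was not tested.

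Aminoacyl-tRNA synthetases join each amino acid to its tRNA, the step that fixes the meaning of the genetic code and feeds the ribosome with charged tRNA. Cytosol and mitochondria use mostly separate enzymes, all encoded in the nucleus, and several cytosolic enzymes are held together in the multisynthetase complex. Many cytosolic synthetase genes are known as targets of ATF4, the transcription factor of the integrated stress response, which binds a composite C/EBP-ATF element in their promoters. Mitochondrial synthetases serve the small set of proteins translated inside the organelle.

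No synthetase passed an adjusted p of 0.05 in either line. The authors' deposited table called 0 of the 36 in the control line, where it called 0 of all genes (0%), and 0 of the 36 in the Ribo-Tweezer line, where it called 1.64% of all genes. Without adjustment, 0 synthetases had p under 0.05 for the control line in the authors' deposited table, against 6.69% of all genes, 2.72% positive and 3.98% negative. For the Ribo-Tweezer line there were 2 in the authors' deposited table, against 16.3% of all genes. They were Aars, which was positive like 9.55% of all genes, and Yars2, which was negative like 6.72%. Among genes at an average expression of 3 or more, the shares were 5.27% and 14.4%. From standard errors computed out of p and fold change, the 95% interval lay wholly between -0.5 and 0.5 for 35 of 36 members in the control line, the exception being Lars2. In the Ribo-Tweezer line this held for 33 of 36, the exceptions being Aars, Lars2 and Yars2. The same was true of 69.1% and 62.8% of all genes, and of 92.9% and 85.9% of the 8633 genes whose average expression reached 3, as that of 34 of the 36 members did. To pass in the Ribo-Tweezer line a member would have needed an absolute log2 fold change of 0.36 to 0.85, depending on its standard error, with a median of 0.44.

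**Figure D1:**
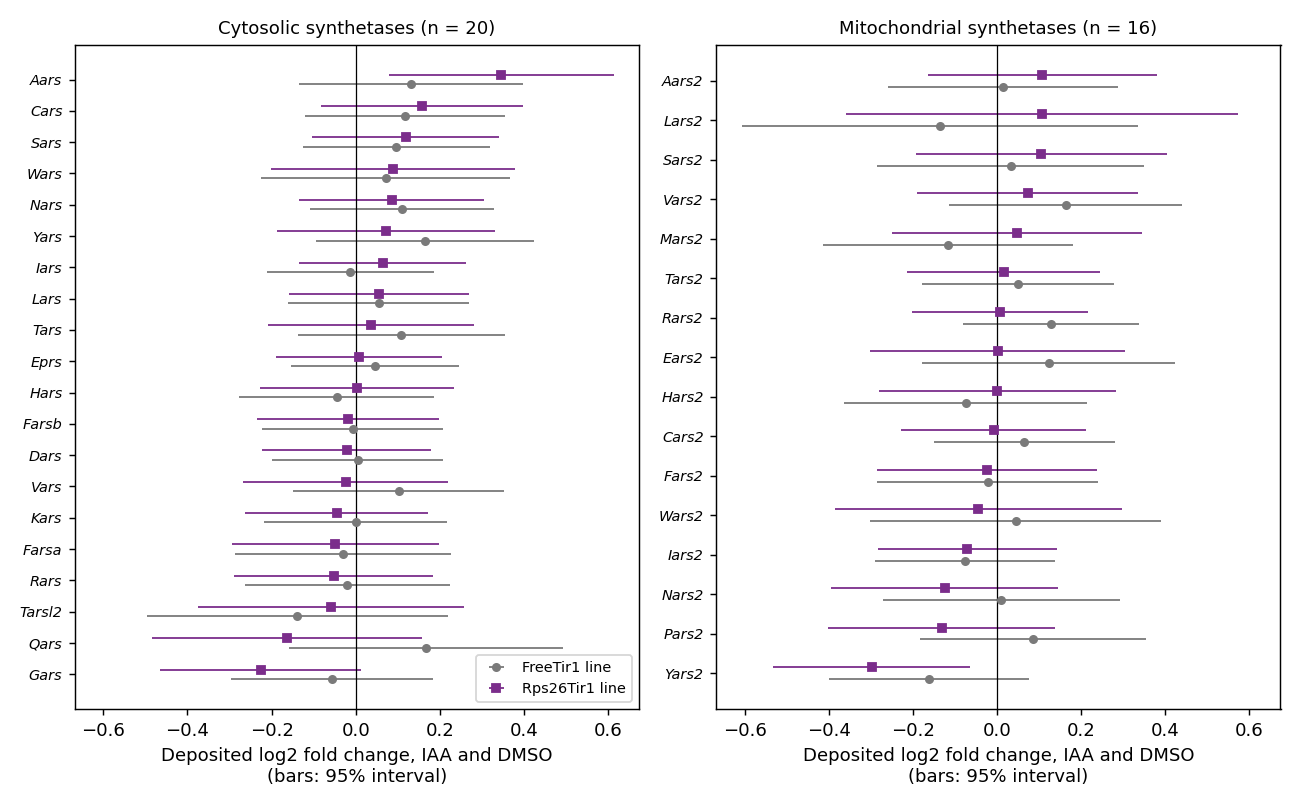
Log2 fold change between IAA and DMSO (x axis) of each synthetase in the authors' deposited table, with 95% intervals worked back from the p-values; grey is FreeTir1, the control line, and purple is Rps26Tir1, the Ribo-Tweezer line. In the Ribo-Tweezer line the intervals of Aars, from 0.08 to 0.61, and Yars2, from -0.53 to -0.06, leave out 0, and every other interval in either line includes it.

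Aars, which encodes cytosolic alanyl-tRNA synthetase (ENSMUSG00000031960, chromosome 8, 111033144 to 111057664, plus strand, GRCm38), had the highest value of all members in the Ribo-Tweezer line. Its log2 fold change in the authors' deposited table was 0.35 there (p = 0.0126, adjusted p = 0.160), and the standard error was 0.130. In the control line the authors' deposited table gave Aars 0.13 (adjusted p = 0.899). The lines differed for Aars by 0.21 with a standard error of 0.185 and an unadjusted p of 0.254, so the value was not shown to differ between them. With the trend in transcript length, GC content and expression removed, the Ribo-Tweezer value of Aars was 0.29. The transcript that the table names for Aars overlaps Exosc6, a gene of an RNA exosome subunit, at its 3' end: 22.7% of its 31-base stretches also lie in Exosc6. The Exosc6 gene, 111056339 to 111057664 on the same strand, lies wholly within the Aars gene and ends at the same base. Exosc6 stood at -0.31 in the authors' deposited table for the Ribo-Tweezer line (adjusted p = 0.607), at an average expression of -0.91. The Exosc6 value may therefore not be separate from that of Aars. How reads of the shared stretch were assigned is not given in the sources used here.

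The promoter of Aars is shown because Aars had the highest value and its promoter holds a match to the C/EBP-ATF element. The RefSeq window of 300 bases, from 250 before to 50 after the start of the transcript (GRCm38.p6, chr8:111033592-111033891, plus strand), is printed 5' to 3', with matches to TGATGNAA on either strand in capitals.
Aars: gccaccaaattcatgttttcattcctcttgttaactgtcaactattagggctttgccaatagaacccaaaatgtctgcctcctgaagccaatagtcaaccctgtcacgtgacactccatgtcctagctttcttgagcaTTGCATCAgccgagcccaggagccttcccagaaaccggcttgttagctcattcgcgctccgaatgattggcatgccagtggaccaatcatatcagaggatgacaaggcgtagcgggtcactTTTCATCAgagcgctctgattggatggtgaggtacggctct
The other 4 cytosolic genes with a match are shown as 30 bases around it, from the same RefSeq windows, each on the strand of its gene: Iars at chr13:49682126-49682155, Tars at chr15:11399655-11399684 on the minus strand, Yars at chr4:129189895-129189924 and Gars at chr6:55037960-55037989.
Iars: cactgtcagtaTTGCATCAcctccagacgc
Tars: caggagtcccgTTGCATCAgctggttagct
Yars: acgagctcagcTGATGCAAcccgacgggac
Gars: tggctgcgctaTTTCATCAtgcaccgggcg

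The motif was chosen after the values were seen. A promoter was at hand for 27 of the 36 members, and Cars, Hars, Lars, Nars, Rars, Vars, Wars, Hars2 and Pars2 had none. The stricter form TGATGCAA, searched on both strands, occurred in 4 of 13 cytosolic genes (30.8%), namely Aars, Iars, Tars and Yars, and in 0 of 14 mitochondrial genes. It occurred in 1.03% of all 27025 genes with a RefSeq promoter. The looser TGATGNAA, which includes the stricter form, occurred in 5 of 13 cytosolic genes, in 0 of 14 mitochondrial genes and in 4.51% of all genes. Its 5 holders did not share a direction in the Ribo-Tweezer line: the authors' deposited table gave 0.35 for Aars, 0.06 for Iars, 0.04 for Tars, 0.07 for Yars and -0.23 for Gars. A match describes these letters only and shows no binding.

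The cytosolic enzymes lay on both sides of 0. The 20 had a median of 0.05 in the control line, with 12 positive, and of 0.01 in the Ribo-Tweezer line, with 11 positive. Over all genes the medians were 0.00 and 0.01, 48.6% and 53% of genes were positive, and 51.4% and 47% were negative. After Aars, the highest Ribo-Tweezer values were those of Cars, for cysteine, and Sars, for serine, at 0.16 and 0.12 in the authors' deposited table (adjusted p = 0.538 and 0.628). Cars and Sars stood at 0.12 and 0.10 in the control line of the authors' deposited table, close to their values in the other line. The lowest was Gars, glycyl-tRNA synthetase, whose gene serves cytosol and mitochondria from alternative starts. Gars had -0.23 in the authors' deposited table for the Ribo-Tweezer line (p = 0.0634, adjusted p = 0.335), and -0.06 in the control column. Tarsl2, a threonyl-tRNA synthetase-like enzyme, stood at -0.06 (adjusted p = 0.894) in the Ribo-Tweezer line of the authors' deposited table. Its average expression of 2.66 was the lowest of the cytosolic members.

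Qars, glutaminyl-tRNA synthetase, had opposite signs in the lines. The authors' deposited table gave 0.17 (adjusted p = 0.895) in the control line and -0.16 (adjusted p = 0.652) in the Ribo-Tweezer line. The difference of -0.33 was the largest of any member in absolute size, with a standard error of 0.223, an unadjusted p of 0.151 and adjusted p = 0.964. Its 95% interval ran from -0.79 to 0.13. Qars was measured less precisely than genes like it: of 786 other genes within 0.5 of its average expression, 0.254% had a larger standard error in the Ribo-Tweezer line.

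The enzymes of the multisynthetase complex lay close to 0. Of its 8 synthetase genes 7 were counted, Eprs, Iars, Lars, Qars, Rars, Kars and Dars, with medians of 0.00 in the control line and -0.02 in the Ribo-Tweezer line. Without Qars, each of them lay between -0.05 and 0.06 in the Ribo-Tweezer line of the authors' deposited table. Kars, the lysine enzyme that is spliced into cytosolic and mitochondrial forms, stood at -0.04 there (adjusted p = 0.879) in the authors' deposited table. Eprs, whose product joins glutamate and proline enzymes in a single chain, stood at 0.01 there (adjusted p = 0.983), again in the authors' deposited table. The 13 cytosolic members outside the complex had medians of 0.10 and 0.04 and ranged from -0.23 to 0.35 in the Ribo-Tweezer line.

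Cytosolic members were also divided by whether they are commonly listed as induced by ATF4. The 12 measured members so listed were Aars, Cars, Eprs, Gars, Iars, Lars, Nars, Sars, Tars, Vars, Wars and Yars. Of these 10 were positive in the control line, with a median of 0.10, and 10 in the Ribo-Tweezer line, with a median of 0.07. Over all genes 48.6% and 53% were positive. Of the 8 others, 2 were positive in the control line, with a median of -0.01, and 1 in the Ribo-Tweezer line, with a median of -0.05. The split was thus present in the control line as well. The list was chosen with earlier results of these data known, and a difference between listed and other members was not tested. Typical standard errors of a single cytosolic member were 0.117 and 0.116 (medians), and the only listed member with an unadjusted p under 0.05 was Aars. Atf4 itself stood at 0.30 (adjusted p = 0.102) in the authors' deposited table for the Ribo-Tweezer line and at -0.03 in the control column. Its difference between the lines was 0.33 (unadjusted p = 0.0224, adjusted p = 0.644). Of the 19 measured genes of a list of Atf4 and amino acid supply and other ATF4 target genes, 1 passed in the Ribo-Tweezer line, against 1.64% of all genes. At an unadjusted p under 0.05 there were 4 of the 19, Atf4, Chac1, Sesn2 and Trib3, each positive, against 9.55% of all genes. The list was mixed in the Ribo-Tweezer line, with 12 positive and 7 negative and a median of 0.08, against 53% of all genes positive. Phgdh stood at -0.25 and Slc7a5 at -0.24 there (adjusted p = 0.370 and 0.321). In the control line 9 of the 19 were positive. The only one with an unadjusted p under 0.05 there was Slc7a5, at -0.26 (adjusted p = 0.669). Sesn2, a stress-induced inhibitor of mTORC1 signalling, stood at 0.48 (adjusted p = 0.0655) and Trib3, a pseudokinase, at 0.30 (adjusted p = 0.271), both from the authors' deposited table. The gene that passed was Chac1, which encodes a glutathione-degrading enzyme, and the authors' deposited table gave it 0.72 (adjusted p = 0.0302). The difference between the lines did not pass for Chac1, at 0.88 (adjusted p = 0.211).

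Mitochondrial enzymes centred on 0 as well. The 16 had a median of 0.02 in the control line, with 10 positive, and of 0.00 in the Ribo-Tweezer line, with 9 positive. Yars2, mitochondrial tyrosyl-tRNA synthetase (ENSMUSG00000022792, chromosome 16, 16302965 to 16309640, plus strand, GRCm38), was the lowest member of all in each line. The authors' deposited table gave Yars2 -0.30 in the Ribo-Tweezer line (p = 0.0145, adjusted p = 0.171), and the standard error was 0.114. In the control line Yars2 stood at -0.16 in the authors' deposited table (p = 0.175, adjusted p = 0.835). The lines differed for Yars2 by -0.14 with a standard error of 0.163 and an unadjusted p of 0.412. None of the 31-base stretches of the Yars2 transcript occurred in another gene.

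The next lowest mitochondrial members in the Ribo-Tweezer line were Pars2, for proline, and Nars2, for asparagine. The authors' deposited table gave them -0.13 and -0.12 there (adjusted p = 0.666 and 0.685), and 0.09 and 0.01 in the control line. The highest were Aars2, Lars2 and Sars2, the alanine, leucine and serine enzymes, at 0.11, 0.11 and 0.11 in the authors' deposited table (adjusted p = 0.732, 0.864 and 0.770). Lars2 stood at -0.14 in the authors' deposited table for the control line, so its sign differed between the lines. The remaining 10 mitochondrial members lay between -0.07 and 0.07 in the Ribo-Tweezer line.

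**Figure D2:**
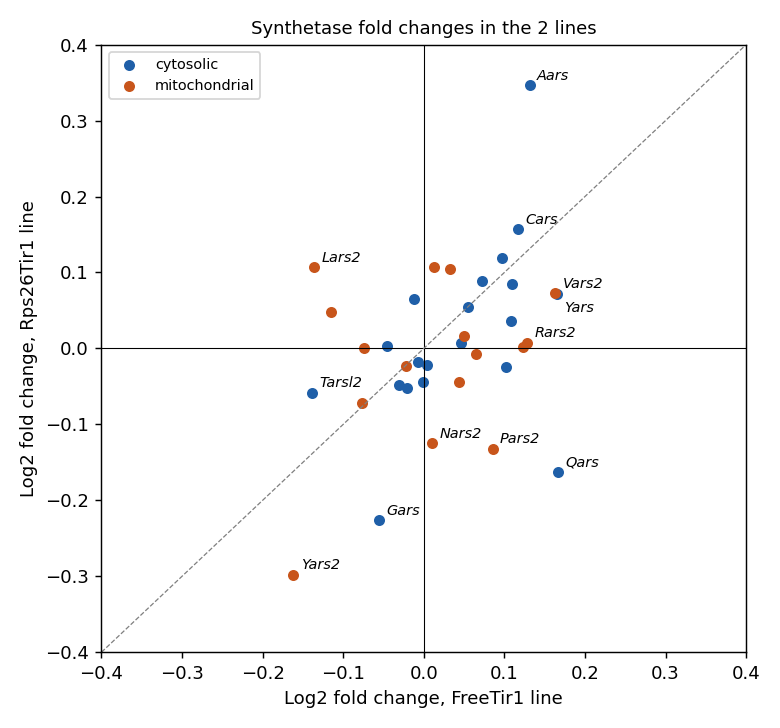
Log2 fold change of each synthetase in the control line (x axis) and the Ribo-Tweezer line (y axis) of the authors' deposited table; blue points are cytosolic and orange points mitochondrial enzymes, and the dashed line marks equal values. Blue and orange points overlap around 0, with Aars at 0.35 and Yars2 at -0.30 on the y axis at the edges.

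Cytosolic and mitochondrial classes overlapped in both lines, with ranges of -0.14 to 0.17 against -0.16 to 0.16 in the control line, and -0.23 to 0.35 against -0.30 to 0.11 in the Ribo-Tweezer line. Enzymes for the same amino acid were set side by side in 15 pairs, with Farsa and not Farsb for phenylalanine and Eprs paired with Ears2 and with Pars2. The cytosolic member had the more positive value in 10 pairs in the control line, with a median gap of 0.05, and in 11 in the Ribo-Tweezer line, with a median gap of 0.02. The tyrosine pair had the widest gap in each line. Yars minus Yars2 was 0.33 in the control line, with a combined standard error of 0.172, and 0.37 in the Ribo-Tweezer line, with a combined standard error of 0.171. It was the 1 pair of 15 in the Ribo-Tweezer line whose gap exceeded 2 combined standard errors, against 0 pairs in the control line. The alanine pair followed in the Ribo-Tweezer line with a gap of 0.24 and a combined standard error of 0.186. No p is given for these gaps, since enzymes are not replicates.

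Whether the effect differed between the lines was tested gene by gene over the whole table. For 0 of 36 members was the adjusted p of the difference under 0.05, against 0.00741% of all genes. At an unadjusted p under 0.05 there were 0 members, against 6.18% of all genes. Of the 8633 genes whose average expression reached 3, 177 were under 0.05 with a positive difference and 81 with a negative one. Ribo-Tweezer minus control was negative for 23 members and positive for 13, with a median of -0.02, whereas of all genes 45.9% were negative and 54.1% positive, with a median of 0.02. The members ranged from -0.33 for Qars to 0.24 for Lars2, and the 95% interval lay within -0.5 and 0.5 for 25 of the 36. The same held for 6295 of all 13504 genes, and for 6027 of the 8633 whose average expression reached 3. Signs were the same in both lines for 24 of 36 members, 15 of 20 cytosolic and 9 of 16 mitochondrial. This compares with 62.2% of all genes and 66.7% of those whose average expression reached 3. Across the 36 members Pearson's r between the lines was 0.38 and Spearman's rho 0.39, which are correlations across genes that share libraries and no independent replicates.

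The levels of the classes differed, which is a gap between genes and no change with IAA. Average expression is a mean over libraries made from fractions, so it need not equal the amount of mRNA in the cells. Average expression was put on a scale per kilobase by subtracting the log2 of the length, in kilobases, of the transcript each row names. On that scale the cytosolic members had a median level of 4.37, the mitochondrial members 2.76 and all genes 2.28. Kars was the highest, at 6.56, which was above 96.1% of all genes. Lars2 at 5.67, Qars at 5.49, Sars at 5.49 and Gars at 5.28 came next, and Wars2, for tryptophan, was the lowest at -0.16. Tarsl2 at 0.98 was the lowest cytosolic member. Within pairs, the cytosolic enzyme had the higher level in 13 of 15, with a median excess of 1.49. The widest excess was 3.87 for Wars over Wars2, followed by 3.19 for Nars over Nars2. The exceptions were threonine, where Tars minus Tars2 was -0.77, and leucine, where Lars minus Lars2 was -2.25. Cars and Cars2 differed by 0.05 and Yars and Yars2 by 0.31. The spread over libraries behind these levels was not used here, so neighbours in this order cannot be called different. They also depend on the named transcript, which for Mars2, the methionine enzyme at 0.68, is 11294 bases long.

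Lars2, mitochondrial leucyl-tRNA synthetase (ENSMUSG00000035202, chromosome 9, 123366927 to 123462666, plus strand, GRCm38), stood apart from its class in level and precision. The authors' deposited table put its average expression at 7.63, against 5.86 for the next mitochondrial member, Iars2. Its standard error was 0.230 in the control line and 0.228 in the Ribo-Tweezer line. Of 403 other genes within 0.5 of its average expression, 0% had a larger standard error in either line, and their median was 0.104 in each line. The Lars2 interval in the Ribo-Tweezer line, from -0.36 to 0.57, was therefore the widest of any member. Of the 31-base stretches of its transcript 1.09% occur in other genes. These genes include AA474408, within transcript bases 3172 to 3313, and Gm15564, within 3278 to 3329, both on the same strand. A share of stretches does not give a share of reads, and how reads there were assigned is not given in the sources used here. The part of these stretches in the level of Lars2 was not tested. What made the Lars2 values spread was not tested.

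**Figure D3:**
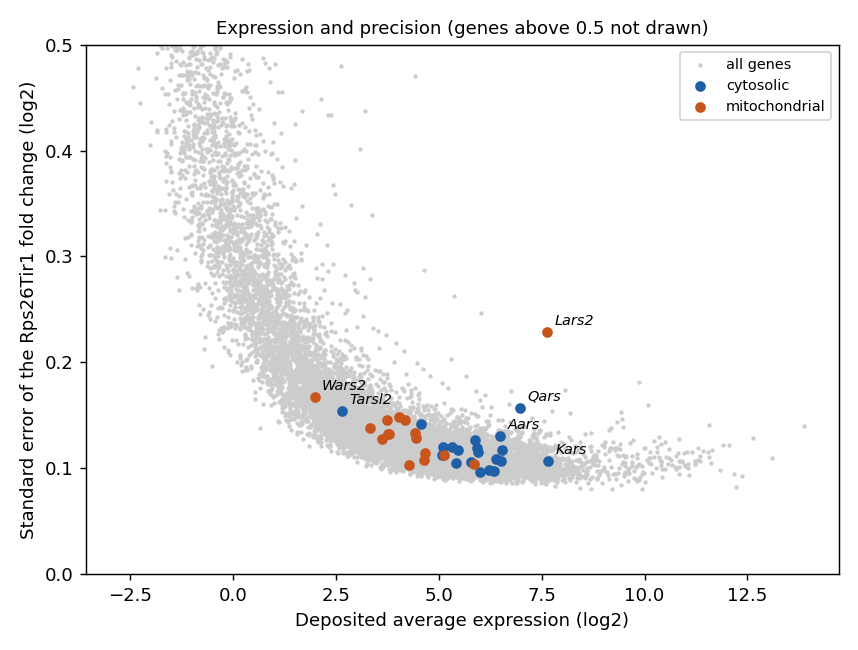
Standard error of the Ribo-Tweezer fold change (y axis, log2) against deposited average expression (x axis, log2) for all genes (grey), cytosolic (blue) and mitochondrial (orange) synthetases. Lars2 at 0.228 and Qars at 0.157 lie above genes of like expression, and Kars at 0.107 lies among them.

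Other members share sequence or strand with neighbours. The kit's strand setting is not given in the sources used here, so reads of overlapping genes on opposite strands may not be separable. Of Iars2 36.8% of the 31-base stretches lie in Rab3gap2 on the other strand, and of Cars2 19.7% lie in Naxd. Iars2 and Cars2 stood at -0.07 and -0.01 in the authors' deposited table for the Ribo-Tweezer line, and Rab3gap2 and Naxd at 0.10 and -0.39. Hars and Hars2, the cytosolic and mitochondrial histidine enzymes, lie head to head with overlapping 5' ends, where 8.42% of Hars and 4.99% of Hars2 is shared with the other. Both stood at 0.00 in the Ribo-Tweezer line of the authors' deposited table. For Iars 20.4% of stretches occur in Gm4849 on the same strand. Gars, Qars, Yars and Yars2 shared no stretch with another gene on either strand.

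Partners of the synthetases were examined next. None of the 3 scaffold genes of the multisynthetase complex, Aimp1, Aimp2 and Eef1e1, passed, and their medians were 0.01 in the control line and -0.11 in the Ribo-Tweezer line. Aimp2 had the smallest p of them in each line of the authors' deposited table, at -0.13 (adjusted p = 0.606) in the Ribo-Tweezer line and -0.21 (adjusted p = 0.741) in the control line. Of 10 genes that take over or check charged tRNA in the cytosol, such as the elongation factor 1 subunits and D-aminoacyl-tRNA deacylases, none passed in either line. Their median was 0.11 in the control line and -0.04 in the Ribo-Tweezer line, and the difference between the lines was negative for 10 of 10, against 45.9% of all genes, with a median of -0.15. Dtd1, a deacylase, had the smallest p in the Ribo-Tweezer line, at -0.17 (adjusted p = 0.493) in the authors' deposited table. Dtd2 had the smallest p of the difference, -0.30 (standard error 0.160, adjusted p = 0.874).

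Of 10 genes of mitochondrial charging and translation, namely Qrsl1, Gatb, Gatc, Mtfmt, Tufm, Tsfm, Gfm1, Gfm2, Mtif2 and Mtif3, 10 were negative in the Ribo-Tweezer line, against 47% of all genes, with a median of -0.11, and 6 in the control line, with a median of -0.02. None passed over all genes, and 2 of 10 had an unadjusted p under 0.05, both negative. Of all genes 6.72% were under it and negative, and 16.3% in either direction. Tsfm, the mitochondrial elongation factor Ts, stood at -0.30 (p = 0.00843, adjusted p = 0.135) in the Ribo-Tweezer line of the authors' deposited table. Qrsl1, a subunit of the amidotransferase that makes glutaminyl-tRNA in mitochondria, stood at -0.29 (p = 0.0358, adjusted p = 0.259) in the same column of the authors' deposited table. Its fellow subunits Gatb and Gatc stood at -0.24 and -0.10 in the authors' deposited table (adjusted p = 0.360 and 0.674). The 16 mitochondrial synthetases, by contrast, had 7 negative members in that line, and a difference between these lists was not tested.

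**Figure D4:**
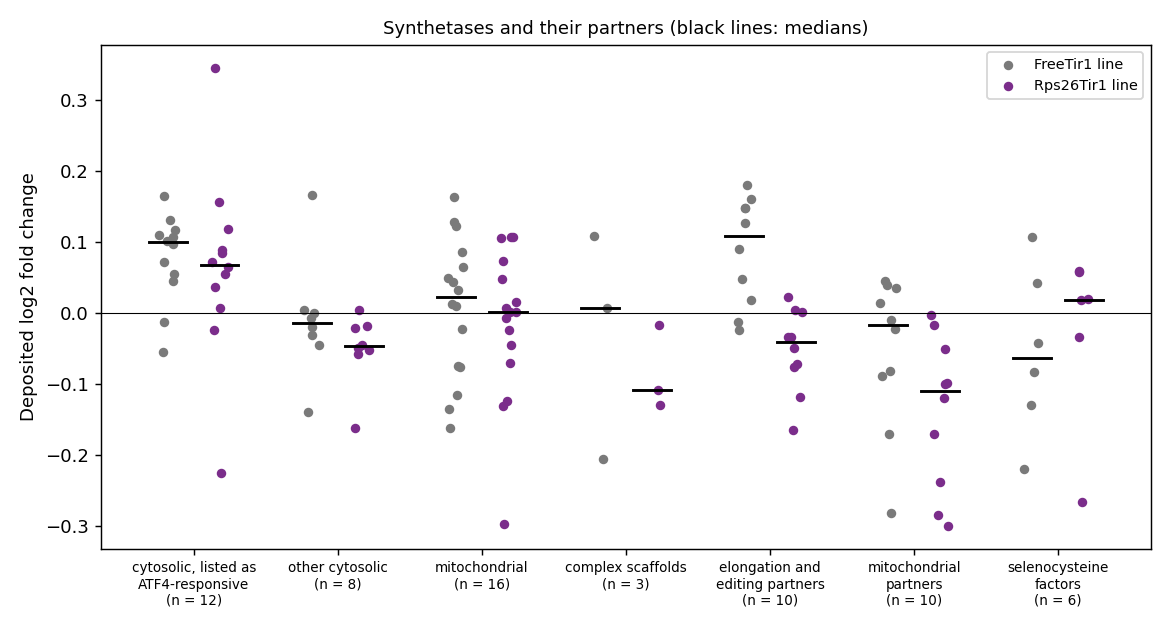
Log2 fold change (y axis) in the authors' deposited table of cytosolic synthetases by ATF4 listing, mitochondrial synthetases and 4 lists of partner genes (x axis), for the control line (grey) and the Ribo-Tweezer line (purple); each point is a gene and black lines are medians. The 10 mitochondrial partners all lie below 0 in the Ribo-Tweezer line, with a median of -0.11, while the mitochondrial synthetases have a median of 0.00.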

How the data were processed

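Trizol was used to extract RNA, which was read on both ends from TruSeq libraries, per the labels' protocols. The sources used here do not give the aligner, counting, genome build, normalization or model. The deposited fold changes and average expression are log values, read as log2 because the column names, per the file headers, are those of limma, though no base is stated. The deposited p-value and adjusted p-value columns were used as given. Average expression was identical in both lines' columns.

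Standard errors were worked back from p-value and fold change with 29 degrees of freedom, chosen between 8 and 60 so that standard errors of the lines agreed best over the genes whose average expression reached 3. Each line difference was tested two-sided against its standard error, combined from both lines as though their errors were independent, and p was adjusted over 13504 genes (Benjamini-Hochberg). The procedure was run on simulated data fitted with limma 3.58.1 in R 4.3.3. Errors were drawn independently for each library there, so the run could not check the assumed independence of the lines. Transcript lengths, overlaps and gene coordinates come from GENCODE M21 (GRCm38), in which all 13504 genes matched, and promoters from RefSeq, computed with Python 3.11.15. GENCODE M21 need not be the authors' annotation. The tests planned on counts per library were not run.

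Members, classes and gene lists were chosen with earlier results of these data known. Members given in full were those with unadjusted p under 0.05 in either line or in the difference, and the 3 highest and 3 lowest of each class in the Ribo-Tweezer line. Of each related list other than the cell type markers, genes with adjusted p under 0.05 were named. The gene with the smallest p in the Ribo-Tweezer line or in the difference was named too. Values of Atf4, Sesn2, Trib3, Slc7a5, Phgdh, Sepsecs, Pstk, Gatb, Gatc, Qrsl1 and the cell type markers were added after they were seen. The same holds for values of Qars, Lars2, Kars and Eprs, and of the genes that share sequence.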

Additional observations from a re-analysis of the deposited data

How the results depend on the processing

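Each of the 57 values recomputed under an alternative kept its side of the threshold or moved by less than the standard error of a typical member. Some of these could not move. No member shared over 50% of its stretches (36.8% at most, for Iars2), so leaving such members out changed nothing. Mars, at adjusted p of 0.982 and 0.964, could not change a count of passing genes. The reported class centres were smaller than that standard error, so staying within it was nearly assured. The count of synthetases past adjusted p of 0.05 stayed 0. For each line this was run with adjustment over the genes in the table, average expression of at least 3, removal of a trend in GC content, expression and transcript length, and inclusion of Mars. For the difference it was run with 20 degrees of freedom, average expression of at least 3, and errors of the lines correlated by 0.5. Adjusted p in the Ribo-Tweezer line ran from 0.160 to 0.292 for Aars and from 0.171 to 0.279 for Yars2. In the control line the centre ran from 0.04 to 0.06 for cytosolic and from 0.01 to 0.04 for mitochondrial members. In the Ribo-Tweezer line it ran from -0.02 to 0.02 and from -0.03 to 0.01, so its sign there depends on the setting. The alternatives with Mars, without Lars2 and without members sharing over 5% of sequence were chosen after seeing the data. No paired analysis was possible because the table holds no values per library. Leaving out a replicate, DESeq2 size factors and a filter on counts were not run for the same reason. Unknown depth limits what a value near 0 can show.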

Other observations

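Mars, the cytosolic methionine enzyme that the list names by another symbol, stood at -0.03 in the control line and 0.02 in the Ribo-Tweezer line of the authors' deposited table (adjusted p = 0.982 and 0.964).

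The structural classes of synthetases, which differ in the fold of the catalytic domain, had like values. The 17 class I members had a median of 0.06 in the control line and 0.01 in the Ribo-Tweezer line, and the 18 class II members 0.01 and -0.01. Eprs, which holds a domain of each class, was left out of these counts. Transcript length was related weakly to the fold change among the 36 members, with Spearman's rho across genes of 0.06 in the control line and 0.16 in the Ribo-Tweezer line, against 0.21 and 0.29 over the genes whose average expression reached 3.

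Of 6 genes of selenocysteine charging and insertion, the pathway that builds selenocysteine on a tRNA first charged with serine, none passed in either line. Eefsec, the selenocysteine elongation factor, had the smallest p, at -0.27 (p = 0.0350, adjusted p = 0.257) in the Ribo-Tweezer line of the authors' deposited table. Sepsecs and Pstk, which convert the seryl-tRNA, stood at 0.02 and 0.06 there (adjusted p = 0.963 and 0.821).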
